A study of Mus musculus with 8 samples.

Results

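The 10 genes described here encode the insulin-like growth factor (IGF) binding proteins Igfbp2, Igfbp3, Igfbp4, Igfbp5, Igfbp6 and Igfbp7, the receptors Igf1r and Igf2r, and the receptor substrates Irs1 and Irs2. They were taken by symbol, through GENCODE M21 gene identifiers, from a table of 35852 genes. The cells were bEnd3, a mouse brain endothelial line transformed with the polyoma middle T antigen, so all libraries come from 1 line. In 4 libraries (CORT) the cells had received 5 µM corticosterone, the main glucocorticoid hormone of mice, for 24 h, and in 4 libraries (medium) they had stayed in culture medium. Both groups were grown in DMEM with 10% fetal calf serum, a possible source of IGFs and of binding proteins that RNA sequencing does not see. Corticosterone is named in the protocol text of the medium samples as well, with no vehicle, so the grouping follows titles and the treatment field. The members were selected on measured values, namely their CORT and medium counts in these libraries.

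IGF1 and IGF2 are growth and survival factors that act through IGF1R, a tyrosine kinase closely related to the insulin receptor INSR. IGF2R, which is also the cation-independent mannose 6-phosphate receptor, carries IGF2 to lysosomes and does not signal as a kinase. Binding proteins hold IGFs in the circulation, the matrix and the pericellular space, and can either limit or prolong access to the receptor. After ligand binding, IRS1 and IRS2 are phosphorylated and recruit PI3K, which activates AKT, restrains FoxO transcription factors and activates mTOR. Brain endothelial cells carry both IGF1R and INSR at the blood-brain barrier.

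Total estimated counts were 27.7 to 33.2 M (M is 1e+06) in CORT libraries and 19.7 to 46.2 M in medium libraries. Mitochondrial genes took 2.05% to 2.58% of counts in CORT libraries and 2.23% to 2.31% in medium libraries. CORT replicates 1 and 2 were quantified with effective transcript lengths equal to the length plus 1 nt, unlike the other 6 libraries, which touches values that depend on transcripts or on length. Endothelial markers were abundant, with a sum over 10 genes (Pecam1, Cdh5, Cldn5 and others) of 8675 to 9011 CPM in CORT libraries and 7885 to 8391 CPM in medium libraries. CPM is counts per 1e+06 of the scaled library. Of these markers 5 were called higher and 3 lower in CORT libraries, at an adjusted p under 0.05 in edgeR. The sum of 9 pericyte and smooth muscle markers was 3.99 to 6.01 CPM in CORT libraries and 5.58 to 6.77 CPM in medium libraries, with Kcnj8 at 0 in all 4 CORT libraries. The sum of 6 fibroblast markers was 6.80 to 8.28 CPM in CORT libraries and 22.3 to 24.4 CPM in medium libraries, most of it Pdgfra, while Lum was at 0 in all 4 CORT libraries and at most 0.035 CPM in medium libraries. At the same threshold 3 of 3 fibroblast markers tested and 2 of 4 pericyte and smooth muscle markers tested were called lower in CORT libraries. Of all genes tested 20.6% were called lower and 19.5% higher, and with so few markers nothing is read from these counts. In bulk RNA, fewer cells of a type and less RNA per cell cannot be told apart, and the part of the fibroblast markers in the values below was not tested.

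The upstream sequences of the 2 most abundant binding protein genes and of the 2 receptor genes are shown, because corticosterone acts through a receptor that can bind DNA near such starts. They are the 250 bases before the RefSeq start on GRCm38.p6, 5′ to 3′ on the gene's strand. For Igfbp3 the window is chr11:7213924-7214173 (minus strand) and for Igfbp4 chr11:99040994-99041243 (plus strand), and capitals mark matches to the letters TATANA, searched as a core promoter element. For Igf1r the window is chr7:67952007-67952256 (plus strand) and for Igf2r chr17:12769707-12769956 (minus strand), and capitals mark GGGCGG, the GC box.
Igfbp3: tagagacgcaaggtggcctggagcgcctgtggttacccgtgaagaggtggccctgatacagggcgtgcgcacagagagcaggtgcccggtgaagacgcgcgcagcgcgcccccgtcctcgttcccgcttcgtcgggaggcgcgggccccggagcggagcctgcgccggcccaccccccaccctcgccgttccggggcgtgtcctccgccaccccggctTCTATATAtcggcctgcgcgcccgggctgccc
Igfbp4: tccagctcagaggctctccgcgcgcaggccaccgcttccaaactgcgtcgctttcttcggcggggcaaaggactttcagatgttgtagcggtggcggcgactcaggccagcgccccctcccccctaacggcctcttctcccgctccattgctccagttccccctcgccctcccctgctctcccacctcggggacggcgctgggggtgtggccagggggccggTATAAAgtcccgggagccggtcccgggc
Igf1r: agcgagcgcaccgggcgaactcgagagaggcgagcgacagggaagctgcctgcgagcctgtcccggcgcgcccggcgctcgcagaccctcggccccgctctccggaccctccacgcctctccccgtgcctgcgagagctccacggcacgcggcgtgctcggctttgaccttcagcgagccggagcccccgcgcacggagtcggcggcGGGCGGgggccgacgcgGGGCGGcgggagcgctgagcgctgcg
Igf2r: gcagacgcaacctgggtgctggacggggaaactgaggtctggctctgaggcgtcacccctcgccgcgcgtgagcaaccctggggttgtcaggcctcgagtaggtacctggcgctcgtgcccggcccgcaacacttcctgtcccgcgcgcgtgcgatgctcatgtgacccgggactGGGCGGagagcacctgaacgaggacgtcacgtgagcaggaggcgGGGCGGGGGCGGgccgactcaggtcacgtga

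The 2 abundant binding protein genes had a TATA-like element close to the start, with matches beginning 32 and 30 bases (Igfbp3, overlapping, on opposite strands) and 28 bases (Igfbp4) before it. The 2 receptor genes held GC boxes and no TATANA match, with 2 boxes in Igf1r and 3 in Igf2r. Motifs were searched on both strands in the windows of all 10 members, with 11 starts because Igfbp2 has 2. Igfbp7, higher in CORT libraries, held 4 GC boxes and no TATANA match. Irs1, lower in CORT libraries, held 2 GC boxes and no TATANA match. Of the barely detected members, Igfbp6 held 2 TATANA matches and no GC box. Igfbp2 held 3 GC boxes before its first start, Irs2 held 1, and Igfbp5 held neither element. A link between these elements and the direction of change was not tested. The TATANA letters occurred in 22.6% of the 32851 mouse promoter windows of this length and GGGCGG in 32.7%. The letters ACANNNTGT, the core of the glucocorticoid receptor palindrome, were in none of the members' windows and in 5.84% of all windows. The single hexamer AGAACA was found in Igfbp2, 206 bases before its first start, and in 16.1% of all windows. The FoxO letters TGTTTAC were in none of the members' windows and in 3.17% of all. The guanine and cytosine content was 73.2% for Igfbp3, 69.2% for Igfbp4, 77.6% for Igf1r and 69.2% for Igf2r, against a median of 52.4% over all windows. A match is a run of letters and not a bound site, and a window without a match says nothing about binding elsewhere.

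Of the 10 members, 6 passed the filter on low counts, and their CORT and medium libraries did not overlap in any of the 6. In CORT libraries Igfbp3, Igfbp4 and Igfbp7 were higher, and Igf1r, Igf2r and Irs1 were lower. The members were picked with this contrast in view, so their values are a description and carry no test. At an adjusted p of 0.05 in edgeR's quasi-likelihood fit, 40.1% of the 13272 genes tested were called, 19.5% higher and 20.6% lower, and in 40.0% the groups did not overlap. All 6 members past the filter were among the called genes, 3 in each direction, and with this background nothing is read from that count. The median absolute log2 fold change was 0.14 over all genes tested and 0.25 over the called ones.

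Igfbp3 (chr11:7206086-7213923, minus strand), the main carrier of IGFs in serum, differed most. It had 512, 527, 549 and 551 CPM in CORT replicates 1 to 4, against 113, 123, 108 and 124 CPM in medium replicates 1 to 4. Even the lowest CORT library lay far above the highest medium library. The means were 535 ± 18.8 CPM in CORT and 117 ± 7.73 CPM in medium libraries (SD, n = 4 each), a log2 fold change of 2.19 ± 0.05 (SE) or 4.57-fold. Of the genes tested, 2.5% were called and at least 2-fold higher in CORT libraries, and 3.75% were called and at least 2-fold different in either direction. Igfbp1, the neighbouring binding protein gene 3539 bases away on chromosome 11, had 0 counts in all 8 libraries.

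Igfbp4 (chr11:99041244-99054392, plus strand), a binding protein mostly described as an inhibitor of IGF action, had 1322, 1353, 1305 and 1333 CPM in CORT libraries, against 1019, 1051, 1053 and 1050 CPM in medium libraries. The libraries of each group lay close together, and the CORT libraries were all above the medium ones. The means were 1328 ± 19.9 CPM in CORT and 1043 ± 16.2 CPM in medium libraries, a log2 fold change of 0.35 ± 0.02 or 1.27-fold, far smaller than that of Igfbp3.

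Igfbp7 (chr5:77349240-77408041, minus strand) encodes a secreted protein of vascular basement membranes that binds IGFs weakly. It had 14.6, 14.6, 13.5 and 17.3 CPM in CORT libraries, against 10.2, 10.8, 10.5 and 10.4 CPM in medium libraries. The log2 fold change was 0.52 ± 0.07, and CORT replicate 4 stood above the other CORT libraries. Exons of Polr2b on the opposite strand cover 7.03% of its exonic bases, and the strand setting of the counting is not given in the sources used here. Polr2b, a subunit of RNA polymerase II, averaged 145 ± 4.89 CPM in CORT and 151 ± 2.20 CPM in medium libraries (adjusted p = 0.095, edgeR).

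The other binding proteins were at or near the limit of detection. Igfbp2, a binding protein known from the developing brain, had 0 counts in all 8 libraries. Igfbp5, a binding protein that attaches to matrix, had 3 counts, all in CORT replicate 4. Igfbp6, which prefers IGF2, had 9 counts over the CORT libraries and 17 over the medium libraries. The levels of Igfbp6 were 0.037 to 0.127 CPM in CORT and 0.050 to 0.184 CPM in medium libraries, with overlap. A count of 0 allows up to 3 counts, which is 0.0649 CPM in the deepest library and 0.152 CPM in the shallowest, for counting error only. Igfbp2 and Igfbp5 lie next to each other on chromosome 1, 5457 bases apart.

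**Figure D1:**
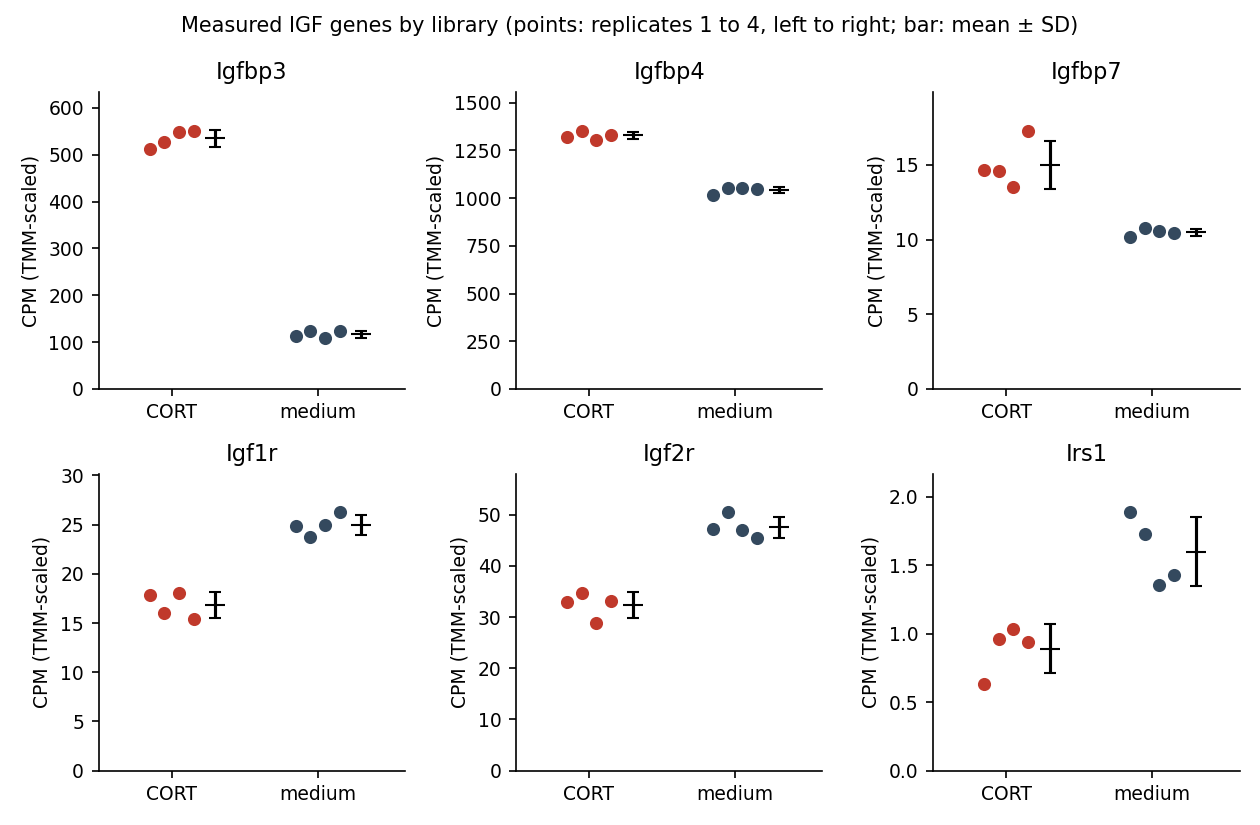
CPM (counts per 1e+06) of the 6 members past the filter, 1 point per library, with the mean and SD of the 4 CORT libraries (left) and the 4 medium libraries (right) in each panel. Igfbp3, Igfbp4 and Igfbp7 lie higher in CORT, and Igf1r, Igf2r and Irs1 lie lower, with no overlap between the groups.

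Both receptors were lower in CORT libraries. Igf1r (chr7:67952827-68233668, plus strand), the signalling receptor, had 17.8, 16.0, 18.02 and 15.4 CPM in CORT libraries, against 24.9, 23.7, 24.98 and 26.2 CPM in medium libraries. Igf2r (chr17:12682406-12769664, minus strand), the clearance receptor, had 32.9, 34.8, 28.8 and 33.1 CPM in CORT libraries, against 47.2, 50.4, 47.1 and 45.5 CPM in medium libraries. In both genes the highest CORT library was below the lowest medium library. The log2 fold changes were close to each other, at -0.57 ± 0.06 for Igf1r and -0.55 ± 0.05 for Igf2r (0.674-fold and 0.682-fold).

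Insr, the insulin receptor gene and no member, went the other way. It had 38.7, 37.4, 40.6 and 42.2 CPM in CORT libraries, against 31.9, 30.7, 31.2 and 30.3 CPM in medium libraries. It rose by a log2 fold change of 0.36 ± 0.04 (adjusted p = 2.59e-05, edgeR), higher in all 4 CORT libraries. On levels per length, which rest on how counts are shared among transcripts, its sign turned to -0.05, where the median of all genes was also shifted by -0.16. The ratio of Igf1r to Insr in CPM was 0.425 ± 0.041 in CORT libraries (0.366 to 0.4602) and 0.805 ± 0.042 in medium libraries (0.774 to 0.866). On levels per length the ratio was 0.371 ± 0.161 in CORT and 0.631 ± 0.135 in medium libraries, and there the groups overlapped. The ratios were not tested.

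Of the receptor substrates, Irs1 (chr1:82233101-82291416, minus strand) was lower and Irs2 was barely detected. Irs1 had 0.633, 0.962, 1.03 and 0.939 CPM in CORT libraries, against 1.89, 1.73, 1.36 and 1.43 CPM in medium libraries. These are low counts, 106 over the CORT libraries and 204 over the medium libraries, and the log2 fold change of -0.85 ± 0.21 has the widest error of the members. Exons of Gm9747 on the opposite strand cover 30.9% of its exonic bases, and 69.3% of its 31-mers are found in no other gene. Gm9747 itself had 0 CPM in all libraries but CORT replicate 2, where it had 0.146 CPM. Irs2, the substrate that dominates insulin action in liver, had 7 counts over the CORT libraries and 3 over the medium libraries.

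**Figure D2:**
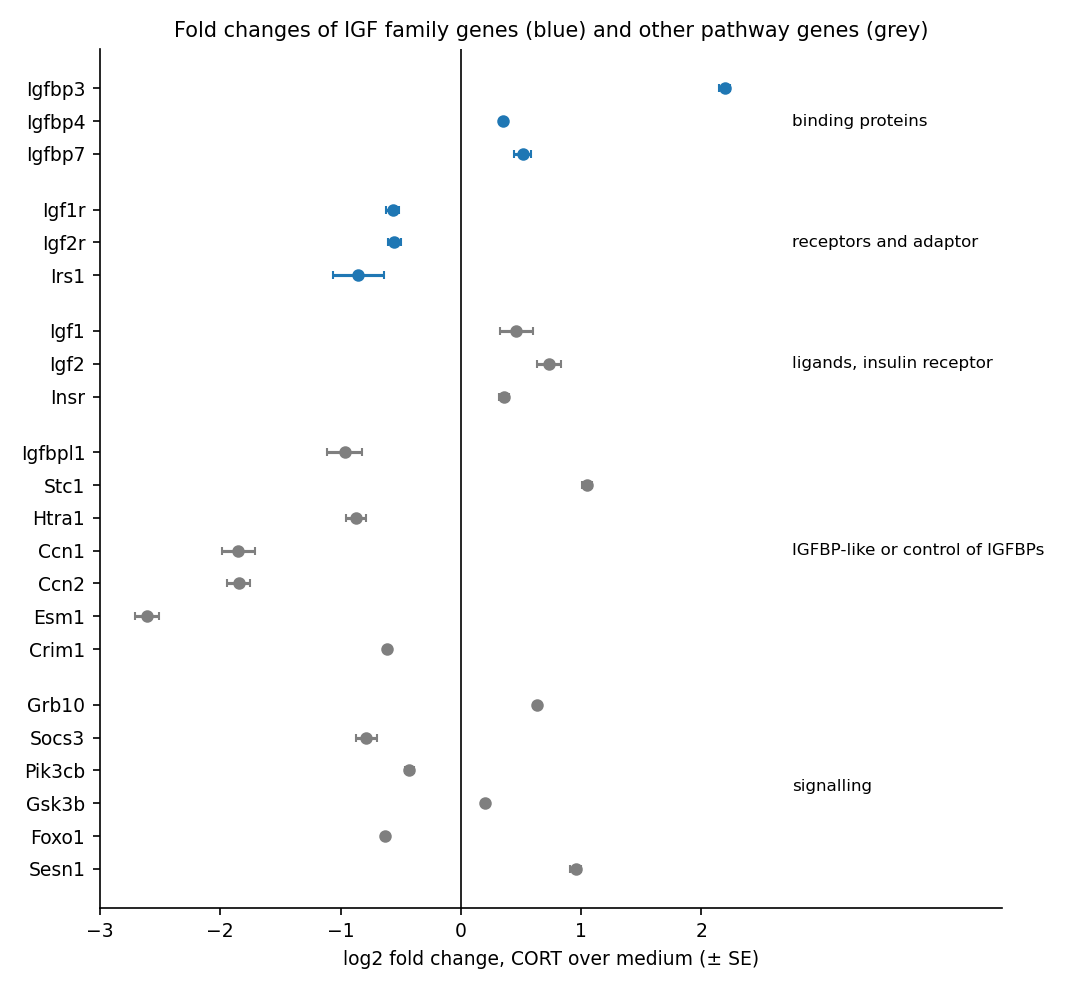
Log2 fold change of CORT over medium (edgeR, bars are ± SE, n = 4 libraries each) for the 6 members past the filter (blue) and the named genes of the pathway (grey), with a line at 0. Among the members Igfbp3 is farthest from 0 at 2.19, and Igf1r and Igf2r sit together at -0.57 and -0.55.

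Levels can be set against each other between genes only per transcript length, as level per length, scaled to a sum of 1e+06. Igfbp4 ranked first at 1364 ± 194 in CORT and 1055 ± 52.8 in medium libraries, and Igfbp3 second at 299 ± 63.7 in CORT and 76.9 ± 5.27 in medium libraries. In CORT replicates 1 to 4 Igfbp4 was at 1571, 1487, 1172 and 1228, and Igfbp3 at 262, 228, 351 and 355. Replicates 1 and 2, with the other effective lengths, thus raise the CORT mean of Igfbp4 and lower that of Igfbp3. The medium libraries had 994 to 1113 for Igfbp4. Igfbp7 came next, at 22.3 ± 5.39 in CORT and 18.3 ± 0.386 in medium libraries. Below it came Igf2r, at 4.35 ± 0.631 in CORT and 7.83 ± 0.581 in medium libraries, and Igf1r, at 2.04 ± 0.643 in CORT and 3.63 ± 0.254 in medium libraries. Irs1 was at 0.116 ± 0.036 in CORT and 0.244 ± 0.043 in medium libraries. Down to Irs1, neighbouring members in this order did not overlap within either group, while Igfbp6, at 0.112 ± 0.055 in CORT and 0.231 ± 0.102 in medium libraries, overlapped with Irs1. In the deposited TPM, Igf1r was at 3.90, 2.36, 2.22 and 1.87 in CORT libraries, against 3.92, 3.65, 3.59 and 3.35 in medium libraries, so that CORT replicate 1 overlapped with the medium libraries. On the level per length Igf1r did not overlap between the groups, with 1.28 to 2.82 in CORT and 3.34 to 3.95 in medium libraries. On that scale Igfbp7 overlapped, with 16.7 to 29.4 in CORT and 18.04 to 18.9 in medium libraries, through CORT replicate 2 at 16.7. In the deposited TPM Igfbp7 did not overlap, with 21.7 to 29.5 in CORT and 18.05 to 18.9 in medium libraries. Both overlaps came from CORT replicates 1 or 2, the libraries with the other effective lengths. The ligand genes were at 7.70 ± 3.48 (Igf2) and 1.73 ± 0.557 (Igf1) in CORT libraries, and at 6.26 ± 1.11 and 1.56 ± 0.453 in medium libraries.

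**Figure D3:**
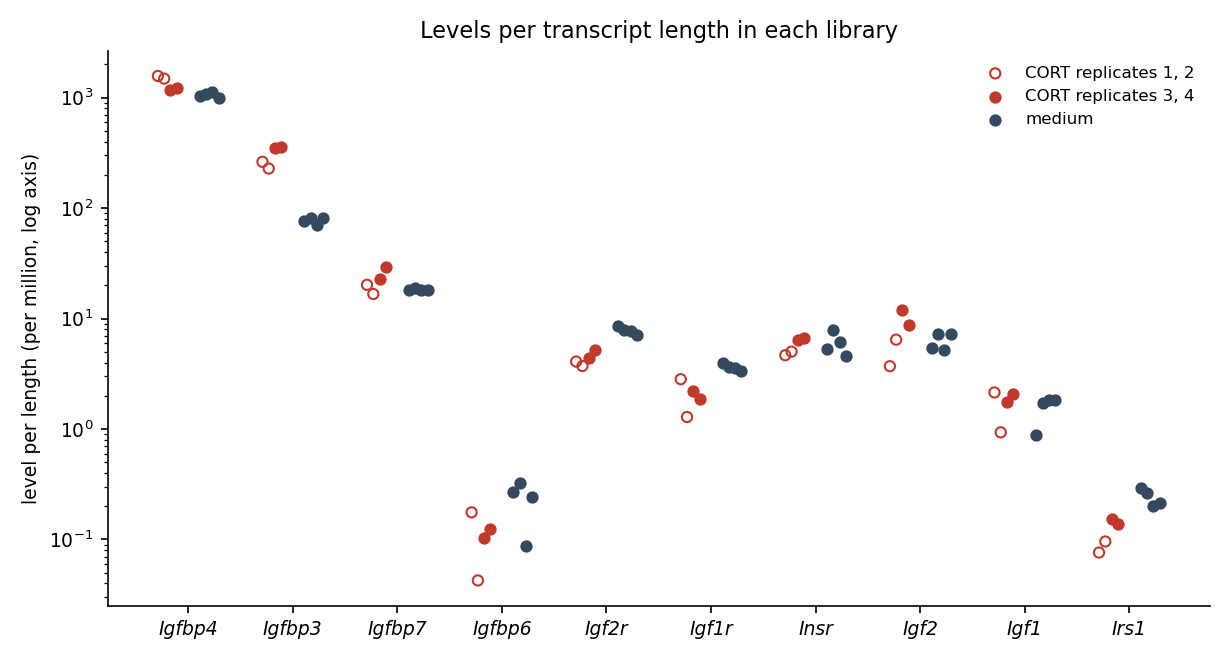
Level per transcript length, scaled to a sum of 1e+06, on a log axis, for 7 members and for Igf1, Igf2 and Insr, 1 point per library, with CORT (red, replicates 1 and 2 open) left of medium (dark) for each gene. Igfbp4 and Igfbp3 lie far above the receptors, the ligands and Irs1 in both groups.

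The summed level of the 6 binding protein members was 1686 ± 136 in CORT libraries and 1150 ± 49.8 in medium libraries. It was 1853, 1732, 1546 and 1613 in CORT replicates 1 to 4, highest in the 2 replicates with the other effective lengths, and 1094 to 1201 in medium libraries. Igfbp3 made up 14.2%, 13.2%, 22.7% and 22.0% of that sum in CORT libraries, against 6.74%, 6.86%, 5.81% and 7.39% in medium libraries. Igfbp4 made up 80.6% ± 5.40 in CORT and 91.7% ± 0.728 in medium libraries. The CORT libraries split into replicates 1 and 2 and replicates 3 and 4, as the effective lengths do, and all 4 lay above every medium library in the Igfbp3 share. From the deposited TPM the Igfbp3 share was 20.5%, 20.6%, 22.9% and 22.0% in CORT libraries, against 6.67%, 6.78%, 5.84% and 7.42% in medium libraries, so the CORT libraries lay closer together on that scale. In CPM the ratio of Igfbp4 to Igfbp3 was 2.58, 2.57, 2.38 and 2.42 in CORT replicates 1 to 4, where the same replicates lay apart by less, and 8.94 ± 0.573 in medium libraries.

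**Figure D4:**
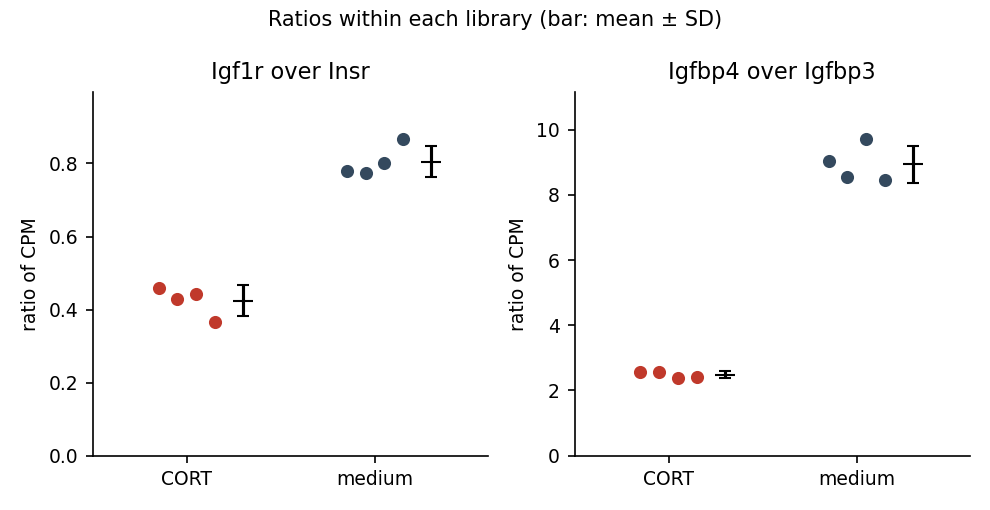
Ratios of CPM of Igf1r to Insr and of Igfbp4 to Igfbp3, 1 point per library with the mean and SD (n = 4), CORT left of medium. Both ratios are lower in CORT libraries, at 0.366 to 0.4602 against 0.774 to 0.866 for Igf1r to Insr, without overlap.

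Among the 6 members past the filter, all but Igfbp4 had 1 transcript that held 95.6% or more of the gene's counts in every library. The Igfbp3 transcript of 2421 nt held 95.6% to 99.4% of the gene's counts in CORT libraries and 97.0% to 97.6% in medium libraries. For Igfbp4, the longest transcript (3831 nt, protein-coding) held 70.3%, 73.1%, 85.1% and 85.5% in CORT replicates 1 to 4, and 83.5% to 84.8% in medium libraries. A shorter processed transcript of Igfbp4 (785 nt) held 23.3%, 15.5%, 11.9% and 11.0% in CORT libraries, against 11.2% to 11.95% in medium libraries. The departure was in CORT replicates 1 and 2, the libraries with the other effective lengths. Without them, the mean share of the 3831 nt transcript in CORT libraries was 85.3%, against 84.3% in medium libraries.

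Outside the members, a list for the extracellular part of the pathway changed in both directions. The list also held Igf2bp1, Igf2bp2 and Igf2bp3, whose products are RNA-binding proteins inside the cell and not IGF binding proteins. Of 18 listed genes 11 were tested, 5 rose and 4 fell, with the middle of the list at a log2 fold change of -0.09, beside a median of -0.005 over all genes tested. The share called was 81.8%, beside 40.1% of all genes tested. The 5 that rose were Igf1, Igf2, Insr, Stc1 and Tmem219, and the 4 that fell were Igfbpl1, Htra1, Igf2bp2 and Lrp1. Igf2, the fetal growth factor, had 10.9, 9.51, 11.4 and 8.93 CPM in CORT libraries, against 5.98, 6.71, 5.22 and 6.53 CPM in medium libraries. Its log2 fold change was 0.73 ± 0.10 (adjusted p = 7.95e-05, edgeR), and only 36.9% of its 31-mers are unique to it, so its count is uncertain. Igf1 had 4.67, 4.25, 4.31 and 4.41 CPM in CORT libraries, against 2.63, 3.94, 2.71 and 3.57 CPM in medium libraries. Its log2 fold change of 0.46 ± 0.14 passed (adjusted p = 0.0178, edgeR), but not without medium replicate 1 (adjusted p = 0.0557, edgeR) or medium replicate 3 (adjusted p = 0.0537, edgeR). With a term for CORT replicates 1 and 2 the adjusted p in edgeR was 0.0629. Igf1 spread widely over the medium libraries and little over the CORT libraries.

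Genes that act on the binding proteins were among those that changed. Stc1, whose product stanniocalcin inhibits the IGFBP4-cleaving protease PAPP-A, rose to 51.5 ± 1.10 CPM in CORT libraries, against 24.9 ± 1.23 CPM in medium libraries. Its log2 fold change was 1.05 ± 0.04 (adjusted p = 7.49e-10, edgeR), higher in all 4 CORT libraries. Pappa, the gene of that protease, was near the limit, with 2 counts over the CORT libraries and 0 over the medium libraries. Htra1, a secreted serine protease that cleaves binding proteins, fell to 4.28 ± 0.277 CPM in CORT libraries, against 7.82 ± 0.463 CPM in medium libraries (log2 fold change -0.87, adjusted p = 3.39e-06, edgeR). Igfbpl1, a binding protein-like gene, fell to 1.64 ± 0.238 CPM in CORT libraries, against 3.21 ± 0.289 CPM in medium libraries (log2 fold change -0.97, adjusted p = 1.97e-04, edgeR). Tmem219, which encodes a receptor for IGFBP3, averaged 13.9 CPM in CORT and 11.7 CPM in medium libraries.

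Secreted and membrane proteins with an IGFBP-like domain formed another list, with 7 of 8 tested, 2 higher and 5 lower, and a median log2 fold change of -0.61. All 7 tested were called, beside 40.1% of all genes tested. Ccn1, a matricellular protein, had 36.7, 32.5, 45.6 and 36.2 CPM in CORT libraries, against 141, 118, 128 and 157 CPM in medium libraries. Ccn2, its relative, averaged 17.0 ± 2.18 CPM in CORT and 61.2 ± 4.60 CPM in medium libraries, where Gm15270 exons on the other strand cover 23.2% of its exonic bases. Both fell by 1.85 on the log2 scale (adjusted p = 5.90e-05 for Ccn1 and 8.23e-07 for Ccn2, edgeR). Esm1, an endothelial proteoglycan, had 2.91, 2.22, 2.52 and 2.31 CPM in CORT libraries, against 16.1, 14.1, 13.9 and 16.7 CPM in medium libraries. It fell by 2.61 on the log2 scale (adjusted p = 7.47e-10, edgeR), and every CORT library was below every medium library. Crim1, a membrane protein that binds bone morphogenetic proteins, fell to 643 ± 6.29 CPM in CORT libraries, against 984 ± 14.6 CPM in medium libraries (log2 fold change -0.61, adjusted p = 1.90e-10, edgeR). The 2 that rose were Ccn3 (log2 fold change 0.48) and Kazald1 (log2 fold change 0.95, at 0.810 CPM in CORT and 0.410 CPM in medium libraries). Ccn4 was the fifth that fell, at a log2 fold change of -0.16 (adjusted p = 0.0457, edgeR), with overlap between the groups. Its call was lost in 15 of 18 alternatives, 6 of them leaving out CORT replicate 1, 2 or 4 or medium replicate 1, 2 or 4, over which the adjusted p from edgeR was 0.0793 to 0.142.

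Of 26 adaptors and brakes on the receptor, 24 were tested, 6 rose and 8 fell, with a median of 0.03 and a share called of 58.3%, beside 40.1% of all genes tested. Grb10, an adaptor that inhibits IGF1R and INSR, had 394, 403, 383 and 381 CPM in CORT libraries, against 247, 251, 255 and 254 CPM in medium libraries. It rose by a log2 fold change of 0.63 ± 0.03 (adjusted p = 9.61e-10, edgeR). Socs3, a feedback inhibitor of cytokine and insulin receptors, fell to 8.14 ± 0.971 CPM in CORT libraries, against 14.0 ± 0.961 CPM in medium libraries (log2 fold change -0.78, adjusted p = 1.26e-05, edgeR). Grb14, a relative of Grb10, was called higher from few reads, with 72 counts over the CORT libraries and 7 over the medium libraries. With so few medium counts Grb14 could pass the filter on low counts only through the CORT libraries, where it was high. It is still among the 6 that rose, so its call carries little weight.

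Of 32 genes of the PI3K, AKT and mTOR core all were tested, 7 rose and 8 fell, with a median of -0.02. Of this list 46.9% were called, beside 40.1% of all genes tested. Pik3cb, a catalytic subunit of PI3K, fell to 22.7 ± 0.509 CPM in CORT libraries, against 30.5 ± 0.517 CPM in medium libraries (log2 fold change -0.43, adjusted p = 1.50e-06, edgeR). Gsk3b, a kinase that AKT inhibits, rose to 123 ± 1.93 CPM in CORT libraries, against 107 ± 2.55 CPM in medium libraries (log2 fold change 0.20, adjusted p = 3.58e-05, edgeR). On levels per length its log2 fold change was -0.06, where the median of all genes was also shifted, by -0.16. Akt1 averaged 489 ± 11.9 CPM in CORT and 483 ± 14.4 CPM in medium libraries (adjusted p = 0.628, edgeR). Without CORT replicates 1 and 2, 5 of the 32 were called lower and 6 higher, beside 8 and 7 with them. Leaving out 1 library at a time gave 6 to 9 called lower, with 6 also without CORT replicate 3 or 4. The smaller number of libraries and the effective lengths cannot be told apart here.

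Of 21 FoxO factors and targets 17 were tested, 3 rose and 10 fell, with a median of -0.15. The share called was 76.5%, beside 40.1% of all genes tested. Foxo1, a regulator of endothelial growth and metabolism, had 101, 100, 103 and 100 CPM in CORT libraries, against 161, 159, 149 and 156 CPM in medium libraries. It fell by 0.63 on the log2 scale (adjusted p = 1.78e-09, edgeR), and no CORT library reached the medium ones. Sesn1, a sestrin that restrains mTOR complex 1, had 24.97, 27.9, 26.3 and 25.6 CPM in CORT libraries, against 13.2, 14.1, 13.7 and 13.2 CPM in medium libraries. It rose by a log2 fold change of 0.95 ± 0.05 (adjusted p = 9.51e-09, edgeR). Txnip and Sod2 were the other 2 that rose, with log2 fold changes of 0.16 and 0.12. Over the 5 lists together 91 of 105 genes were tested and 58 were called, with a median of -0.04. Of the 58, 23 rose and 35 fell. Of all genes tested 40.1% were called, 19.5% higher and 20.6% lower. The lists were chosen with earlier results known, so no lean of the pathway is read from these counts. In a limma fit to log2(TPM + 1), which carries the unequal effective lengths, the calls of Igf1, Igf2, Insr, Igfbpl1, Crim1, Pik3cb and Gsk3b were lost with their signs kept.

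**Figure D5:**
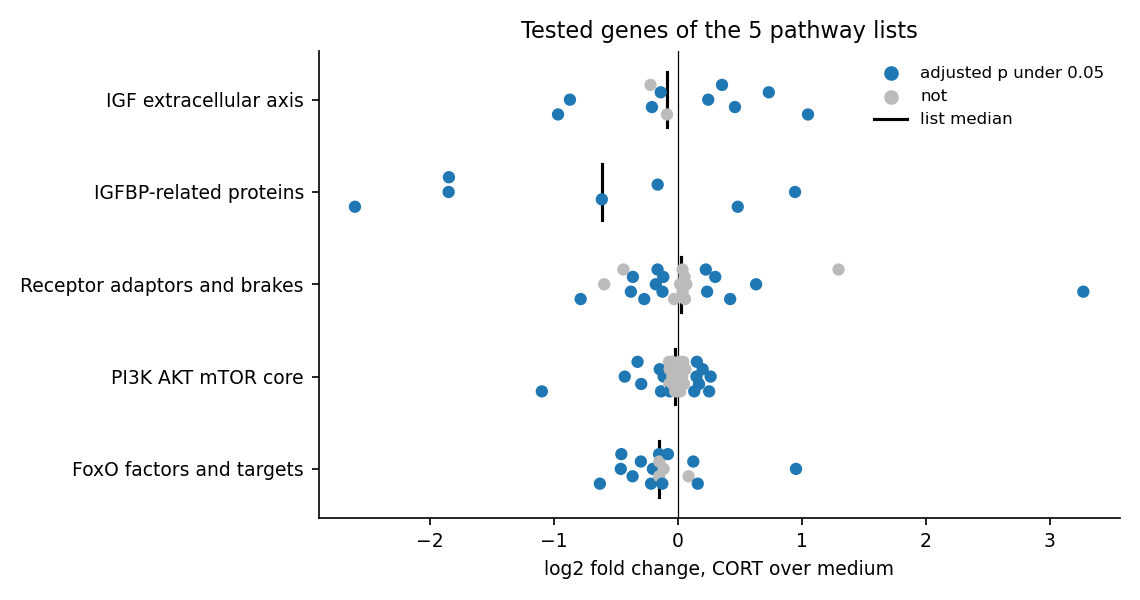
Log2 fold change of CORT over medium (edgeR) for every tested gene of the 5 pathway lists, 1 point per gene, blue where the adjusted p was under 0.05 and grey where it was not, with the list median as a bar. The IGFBP-related list has its median at -0.61 and the PI3K, AKT and mTOR list at -0.02.

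For Igfbp3 and Irs1, the members with the largest log2 fold changes in each direction, the most similar genes were sought over the 8 libraries. Likeness was the root mean square difference of log2 CPM, each gene centred on its mean. With 2 groups of libraries this measure mostly follows the difference between CORT and medium. The nearest genes are therefore largely those with a similar log2 fold change, and shared control was not tested. Castor1, an arginine sensor upstream of mTOR complex 1, was closest to Igfbp3 at 0.063, followed by the matrix proteins Tgfbi at 0.068 and Matn2 at 0.077. Castor1 averaged 62.1 CPM in CORT and 13.5 CPM in medium libraries, a log2 fold change of 2.20 beside the 2.19 of Igfbp3. For Tgfbi and Matn2 the log2 fold changes were 2.26 and 2.29. Irs1 was closest to Morc4 at 0.132, Pygo1 at 0.137 and Tspan33 at 0.151, all at low CPM.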

How the data were processed

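RNA was measured in 8 directional poly(A) libraries of bEnd3 cells, 4 CORT and 4 medium. Per the submitters' processing notes, bcl2fastq and kallisto 0.46.1 were used with mm10 and GRCm38. Nothing in the sources used here gives the transcript index, strand setting or read length. Deposited by the authors were estimated counts per gene, which are not normalized, and per library a transcript table with estimated counts, lengths and TPM. Per the file headers, TPM is scaled per 1e+06 transcripts with each library's own effective lengths. In CORT replicates 1 and 2 the effective length was the length plus 1 nt, and in the other 6 libraries its median gap was 340 to 360 nt.

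Gene identifiers all matched GENCODE M21 (GRCm38, positions from 1). Rounded estimated counts went into edgeR 4.0.16 (R 4.3.3): filterByExpr left 13272 genes, TMM scaled libraries, and the robust quasi-likelihood F test was adjusted by Benjamini-Hochberg, with a threshold of 0.05. Level per length divides each transcript's estimated count by 1 effective length for all libraries and scales to 1e+06. On simulated data for this comparison with 13168 genes, 97.9% of changes of 1 on the log2 scale and 88.0% of changes of 0.5 were recovered. There, 4 unchanged genes were called. The simulation gave every gene the same dispersion of 0.002 and changed 200 genes, unlike the real data, so these shares do not give the recovery in the real data. The alternatives were DESeq2 1.42.0, library size alone, no filter, limma 3.58.1 on log2(TPM + 1), log2(TPM + 0.1) and log2(level per length + 1), each library left out, CORT replicates 1 and 2 left out or given a term, and a replicate block.

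The members and the gene lists were chosen with earlier results of these data known. Members get no test. From the lists, genes past the threshold with an absolute log2 fold change of 0.5 and a mean of 1 CPM in a group are named, or, where a list has none, the 2 with the smallest p. Igf1, Igf2, Insr and the 3 nearest genes to Igfbp3 and Irs1 are named too, and any other gene was chosen after its values were seen. Whether replicates come from separate cultures is not labelled, and p-values then cover only the spread among these libraries, which may be technical.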

Additional observations from a re-analysis of the deposited data

Results flagged for a closer look

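In 2 of 44 groups of 4 libraries examined, 1 library lay apart by Dixon's ratio, where chance gives about 1 in 20. For Igfbp4, medium replicate 1 had 1019 CPM, below the other medium libraries at 1050 to 1053 CPM. For Gsk3b, CORT replicate 4 had 120 CPM, below the other CORT libraries at 124.1 to 124.5 CPM. Both stayed on their own group's side, and without the library the log2 fold changes kept their sign.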

How the results depend on the processing

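Member log2 fold changes kept their sign under every alternative in which they had a value (Irs1 had none in the 3 limma fits with a filter), over ranges of 1.92 to 2.26 for Igfbp3, 0.32 to 0.36 for Igfbp4, 0.24 to 0.56 for Igfbp7, -0.63 to -0.40 for Igf1r, -0.73 to -0.39 for Igf2r and -0.93 to -0.11 for Irs1. The numbers of called genes moved in the limma fits to length-scaled values. In the order log2(TPM + 1), level per length, log2(TPM + 0.1) and TPM without a filter, 1473, 962, 1481 and 1246 genes were called in all. Of these, 902, 297, 911 and 774 were higher and 571, 665, 570 and 472 lower, so 61.2%, 30.9%, 61.5% and 62.1% were higher, beside 48.6% with edgeR. Called in the same order were 2, 2, 2 and 1 members, 2, 2, 2 and 1 extracellular genes, 4, 4, 4 and 4 IGFBP-related genes, 6, 3, 6 and 4 adaptors, 1, 1, 1 and 0 PI3K genes and 4, 2, 4 and 2 FoxO genes. The 3 TPM fits carry the unequal effective lengths of CORT replicates 1 and 2, the level per length does not divide by them, and the cause was not tested. With level per length the log2 fold change of Insr turned to -0.052 and that of Gsk3b to -0.063. The median over all genes in that fit was -0.16. With DESeq2, library size alone, no filter and a term for CORT replicates 1 and 2, 4974, 5556, 5005 and 4485 genes were called. Of the values of the named list genes under all alternatives, 256 kept their call and sign, 30 lost the call and 2 changed sign. Ccn4, chosen after its values were seen, is not counted here. Of the genes counted, Igf1 alone lost its call outside the limma fits. Socs3 and Htra1 were among those that lost it in limma fits alone. Leaving out each library gave 4753 to 5089 called genes, 6 members, 8 to 9 extracellular, 6 to 7 IGFBP-related, 13 to 15 adaptor, 13 to 16 PI3K and 11 to 12 FoxO genes. Same-numbered libraries did not deviate together (correlations -0.053 to 0.030), and with the replicate block 4913 genes were called, with 6 members among them. Among member transcripts with a mean share of 5% or more, 1 did not overlap between the groups without CORT replicates 1 and 2, and 0 with them. It was the 3831 nt transcript of Igfbp4, at 85.1% and 85.5% in CORT replicates 3 and 4, against 83.5% to 84.8% in medium libraries. With 2 CORT libraries left such a separation is easily reached, and the share over all transcripts is not given here, so nothing is read from it. Low counts limit Igfbp2, Igfbp5, Igfbp6 and Irs2.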
